A study of Rattus norvegicus with 6 samples.

Results

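Potassium leaves and enters the colonic lining through a small set of membrane proteins. Described here are 7 genes of such proteins or of channel partners, in the inner epithelial layer of the rat colon. The potassium channel genes are Kcnn4, Kcnma1, Kcnq1 and Kcnk5, and the channel partner genes are Kcne3 and Kcnip2. The last gene, Atp12a, encodes the catalytic subunit of the colonic proton pump. The genes were chosen by name, with earlier results of these data known, and the transcripts that the RefSeq rat annotation assigns to each name were summed. All 7 were in the table, out of 13104 genes and unmatched transcripts. The tissue came from 6 adult male Wistar rats whose pineal gland, the night-time source of melatonin in blood, had been removed in every animal. The melatonin group (MEL, animals 4, 5 and 6) received 1 mg/kg melatonin intraperitoneally and the vehicle group (VEH, animals 1, 2 and 3) received 2.5% ethanol in PBS, both when subjective night began, and all were killed 4 h afterwards. Every rat in both groups therefore lacked the pineal rhythm, so the comparison concerns 1 injected dose and 1 time. The comparison asks which genes of the epithelium respond to the hormone within hours.

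In the colon, potassium channels set the electrical driving force on which other ion movements depend. Channels in the basolateral membrane, among them the channel encoded by Kcnn4 and the Kcnq1 and Kcne3 complex, return potassium to the blood side and so sustain the exit of chloride from secreting cells. Channels in the apical membrane let potassium out into the lumen, and the pump encoded by Atp12a takes it up from the lumen in exchange for protons. The sodium pump and the cotransporter encoded by Slc12a2 load potassium into the cell from the blood side.

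Each library held an estimated 3290000 to 3590000 mapped fragments, a number inferred here from the steps between low values, and between 12057 and 12323 transcripts lay above 0. RNA integrity numbers were 9.0 to 9.7. Markers of absorptive colonocytes were all present, 10 of 10, with a summed level of 9969 to 11670 FPKM in melatonin animals and 10713 to 12341 FPKM in vehicle animals. FPKM is a fragment count corrected for both transcript length and library size, so levels of different genes can be set side by side. Smooth muscle markers, 7 of 8 in the table, summed to 11.1 to 16.5 FPKM after melatonin and 9.91 to 14.6 FPKM after vehicle. Des (3.00 to 7.02 FPKM), Myh11 (2.36 to 3.95), Tagln (1.29 to 3.83) and Lmod1 (0.98 to 2.20) lay above 0 in every library. The muscle actin Acta2 was at 0 in 1 melatonin library and in all 3 vehicle libraries. Actg2 and Synpo2 were at most at 0.23 and 0.48 FPKM. In bulk tissue, fewer cells of a type and less RNA per cell cannot be told apart.

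None of the 7 genes changed after melatonin by the test used. That test was limma on log2(FPKM + 1), fitted to all 10137 features with a mean of at least 1 FPKM, and a gene was called at an adjusted p (Benjamini-Hochberg) under 0.05. All 7 genes passed the filter on low values, and 0 were called higher and 0 lower. Over all features the share called was 0.00% in each direction, with a smallest adjusted p of 0.182. At an unadjusted p under 0.05, Kcnip2 alone of the 7 was lower, while 3.75% of all features reached that limit, 1.92% lower and 1.82% higher. Kcnip2 was also the 1 gene whose melatonin animals all lay below its vehicle animals, which held for 4.33% of all features, and no member lay wholly above, which held for 4.04%. Kcnip2 passed the filter through its vehicle animals alone, as no melatonin animal reached 1 FPKM. The genes were also chosen with earlier results of these data known, so both results for Kcnip2 are description only. Fitted differences were below 0 for 6 of the 7 genes, against 54.0% of all features, and their median was -0.07 on the log2 scale, against -0.02 over all features. With 3 animals against 3, an exact two-sided permutation test of a single gene cannot go below p = 0.1.

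**Figure D1:**
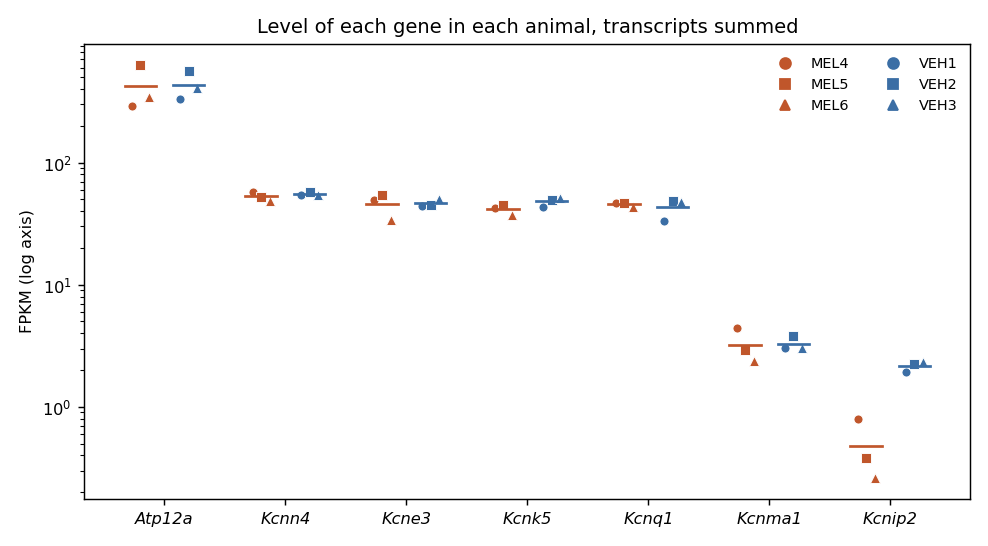
Level of each of the 7 genes in each animal in FPKM on a log axis, transcripts of a gene summed, melatonin animals left in orange and vehicle animals right in blue, with a line at each group mean; the shape of a point only tells the animals of a group apart. Atp12a stands far above the others, Kcnn4, Kcne3, Kcnk5 and Kcnq1 lie together near 50 FPKM, and Kcnip2 is the gene whose groups do not overlap.

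The genes fell into 3 tiers of level. Atp12a averaged 429 ± 138 FPKM over the 6 animals (SD, n = 6), rank 193 among the tested features. Kcnn4 averaged 54.1 ± 3.43, Kcne3 46.3 ± 7.04, Kcnk5 45 ± 5.19 and Kcnq1 44.5 ± 5.65 FPKM. Neighbours within this middle tier overlapped in range. Kcnn4 lay above Kcne3 in 5 of 6 animals, while Kcne3 lay above Kcnk5 in 3 of 6 and Kcnk5 above Kcnq1 in 3 of 6. Kcnma1 averaged 3.26 ± 0.713 and Kcnip2 1.32 ± 0.946 FPKM, and both steps down to them held in 6 of 6 animals without overlap of the ranges.

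Kcnn4 encodes the intermediate conductance calcium-activated channel KCa3.1, through which calcium signals open the potassium exit of the epithelium. Its summed level was 57.75, 51.89 and 48.82 FPKM in melatonin animals 4, 5 and 6, against 54.49, 57.67 and 54.07 FPKM in vehicle animals 1, 2 and 3. The groups overlapped, with melatonin animal 4 the highest of all and melatonin animals 5 and 6 below every vehicle animal. The log2 difference of melatonin minus vehicle was -0.07 ± 0.10 (SE), with a 95% interval of -0.31 to 0.17 and a limma adjusted p of 0.974. This was also the steadiest of the 7 genes. Its coefficient of variation over the 6 animals was 6.35%, close to the 5.29% that counting an estimated 358 reads gives alone, and 86.0% of the 1527 features within 1.5 times of its level varied more.

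The 3 Kcnn4 transcripts in the table did not share that steadiness. In rat colon, splice forms of this channel have been described at opposite membranes of the cell, and the table names its rows by accession only, so no row is tied here to a form. The transcript NM_001270701, of 1931 bases, stood at 52.90, 36.22 and 41.37 FPKM after melatonin, against 28.62, 29.83 and 45.91 FPKM after vehicle. The transcript NM_001270702, of 1871 bases, stood at 4.85, 15.67 and 7.45 FPKM after melatonin, against 25.87, 0 and 8.16 FPKM after vehicle. The transcript NM_023021, of 1958 bases, was listed at 0 in all 3 melatonin animals and in vehicle animals 1 and 3, and at 27.84 FPKM in vehicle animal 2. That value corresponds to an estimated 176 reads, in the same library that lists NM_001270702 at 0. Reads common to transcripts of 1 gene have to be divided by estimation, so these values are less certain than their sum.

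As a share of the summed Kcnn4 level, NM_001270701 held 91.6%, 69.8% and 84.7% after melatonin, against 52.5%, 51.7% and 84.9% after vehicle. Melatonin animals 4 and 5 lay on either side of vehicle animal 3, so the groups overlapped. The mean share was 82.0 ± 11.1% in melatonin animals and 63.1 ± 18.9% in vehicle animals (SD, n = 3 each), a difference of 19 percentage points (exact two-sided permutation p = 0.3). The difference for NM_001270702 was -2.90 points (exact permutation p = 0.9) and for NM_023021 -16.1 points (exact permutation p = 1). The latter p was fixed in advance, since with 1 animal above 0 every division of the animals gives the same absolute difference. The value for NM_023021 was carried by vehicle animal 2 alone and was 0 without it. In the authors' deposited table NM_023021 has a log2 ratio of melatonin over vehicle of -9.86, the most negative of all 13647 transcripts, against 0.32 for NM_001270701 and -0.28 for NM_001270702. Values of 0 had been set to 0.01 FPKM before that ratio was taken. By a limit set after these values were seen, transcripts at 0 in 5 libraries and at 5 FPKM or more in the sixth made up 1.19% of the 928 transcripts from genes with several transcripts (11 of them), and 0.134% of the 12719 features with 1 transcript (17 of them).

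**Figure D2:**
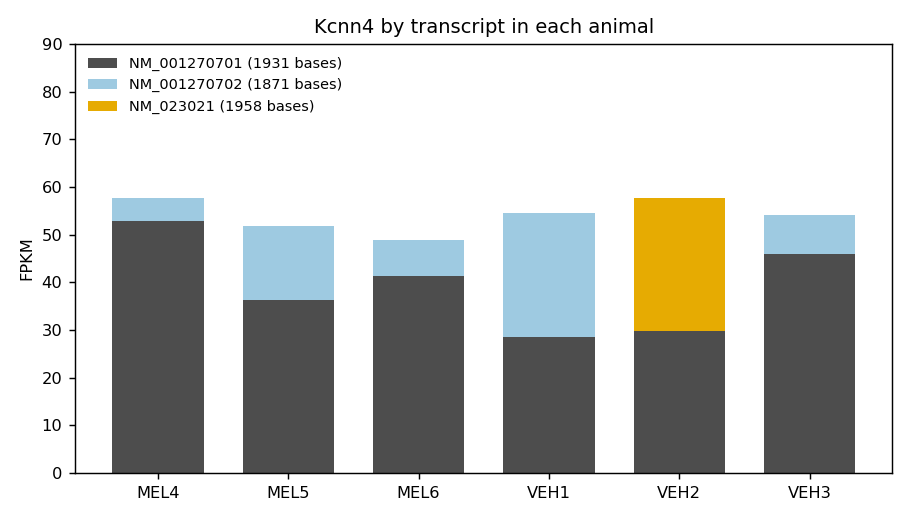
Kcnn4 in each animal as stacked bars in FPKM, melatonin animals left and vehicle animals right, 1 colour per transcript. The bar tops stay between 48.82 and 57.75 FPKM while the parts differ, and NM_023021 appears in vehicle animal 2 only.

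Kcnq1 encodes a voltage-gated channel that becomes open at rest when joined by the single-span partner encoded by Kcne3, and the pair forms the basolateral potassium conductance that cyclic AMP-driven chloride secretion uses. Kcnq1 stood at 47.11, 46.87 and 43.50 FPKM after melatonin, against 33.53, 48.42 and 47.76 FPKM after vehicle. Vehicle animal 1 was the low one, and the other animals of both groups lay within 43.50 to 48.42 FPKM. The log2 difference was 0.10 ± 0.15, with a 95% interval of -0.25 to 0.45 (limma adjusted p = 0.974), and it turned to -0.07 without vehicle animal 1. Kcne3 stood at 49.50, 54.04 and 33.89 FPKM after melatonin, against 44.46, 45.37 and 50.74 FPKM after vehicle. Here melatonin animal 6 was the low one and melatonin animal 5 the highest. The log2 difference was -0.06 ± 0.17 (limma adjusted p = 0.982), and it turned to 0.14 without melatonin animal 6. Within an animal the level of Kcnq1 over that of Kcne3 ranged from 0.754 in vehicle animal 1 to 1.28 in melatonin animal 6. The other Kcne genes fixed as possible partners were near 0, with Kcne2 at most at 0.36 FPKM and Kcne4 at 1.88 FPKM in melatonin animal 6 and 0 elsewhere, and Kcne1 and Kcne5 were not analysed here.

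Kcnk5 encodes TASK-2, a background channel of the two-pore domain family that opens in alkaline conditions. It stood at 42.80, 45.37 and 37.17 FPKM after melatonin, against 43.30, 49.87 and 51.46 FPKM after vehicle. Melatonin animals 4 and 6 lay below every vehicle animal and melatonin animal 5 did not. The log2 difference was -0.20 ± 0.12, with a 95% interval of -0.48 to 0.07 (limma unadjusted p = 0.129, adjusted p = 0.972). Leaving out each animal in turn moved it between -0.28 and -0.12.

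Kcnma1 encodes the pore of the large conductance calcium- and voltage-activated channel BK, the apical channel through which the rat colon secretes potassium. It stood at 4.39, 2.93 and 2.37 FPKM after melatonin, against 3.04, 3.77 and 3.03 FPKM after vehicle, which is an estimated 46 to 83 reads per library. Melatonin animal 4 was the highest and melatonin animals 5 and 6 the lowest. The log2 difference was -0.04 ± 0.24, with a 95% interval of -0.59 to 0.51 (limma adjusted p = 0.992), and it turned to 0.11 without melatonin animal 6 and to 0.04 without vehicle animal 2. Lrrc26, a gamma subunit that lets BK open at resting voltage, stood far above the pore gene at 31.32, 23.94 and 17.04 FPKM after melatonin, against 23.81, 21.56 and 20.44 FPKM after vehicle (log2 difference 0.09 ± 0.20, limma adjusted p = 0.979). Its highest and lowest animals were those of Kcnma1, melatonin animals 4 and 6. The neuronal beta subunit Kcnmb4 was listed at 0.28 FPKM in melatonin animal 5 and at 0 in the others. The other 6 auxiliary subunit genes of that list were not analysed here. BK is also a channel of smooth muscle, and the smooth muscle markers, 7 of 8 in the table, summed to 16.5, 11.1 and 11.5 FPKM after melatonin, against 14.6, 9.91 and 13.8 FPKM after vehicle, again highest in melatonin animal 4. The lowest marker sum, 9.91 FPKM, was that of vehicle animal 2, where Kcnma1 at 3.77 FPKM came next to its highest value. The part of smooth muscle in the Kcnma1 values was not tested.

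Kcnip2 encodes KChIP2, a calcium-binding partner of the Kv4 channels, best known for the transient outward current of heart muscle. It stood at 0.79, 0.38 and 0.26 FPKM after melatonin, against 1.92, 2.23 and 2.32 FPKM after vehicle. All 3 melatonin animals lay below all 3 vehicle animals. The log2 difference was -1.11 ± 0.27, with a 95% interval of -1.73 to -0.49, an unadjusted limma p of 0.00325 and an adjusted p of 0.972, so it was not called. The gene passed the filter through its vehicle animals, since no melatonin animal reached 1 FPKM. The values rest on an estimated 6, 3 and 2 reads after melatonin, against 15, 16 and 19 reads after vehicle. In vehicle animal 3 most of the value came from a transcript of its own, NM_020094, listed at 1.88 FPKM there and at 0 in the other 5 animals. The transcript found in every animal, NM_001033961, stood at 0.44 FPKM in vehicle animal 3, below the 0.79 FPKM of melatonin animal 4, so on that row alone the groups overlapped and the log2 difference was -0.71 (limma adjusted p = 0.972).

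The Kv4 channels that Kcnip2 would join were scarce. Kcnd1, Kcnd2 and Kcnd3 encode these pores, and each averaged under 1 FPKM. Kcnd2, the highest, stood at 1.01, 0.91 and 0.49 FPKM after melatonin, against 0.56, 1.45 and 0.50 FPKM after vehicle. Of the related partner genes, Kcnip3 was listed at 0.37 FPKM in melatonin animal 4 and at 0 in the others. Markers of enteric neurons and glia, 6 of 8 in the table, summed to 7.38, 6.58 and 4.63 FPKM after melatonin, against 7.91, 11.8 and 5.39 FPKM after vehicle. Most of that was Snap25, the neurons' vesicle fusion protein also made by hormone cells, while the glial markers Sox10 and Gfap were listed at 0 in 5 of 6 libraries each. Their part in the Kcnip2 values was not tested.

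Atp12a encodes the nongastric proton and potassium pump, a relative of the sodium pump that recovers potassium from the lumen of the distal colon and that aldosterone or a low-potassium diet is known to affect. It stood at 292.27, 634.41 and 347.40 FPKM after melatonin, against 329.14, 558.86 and 409.32 FPKM after vehicle. Melatonin animal 4 was the lowest and melatonin animal 5 the highest, and vehicle animal 2 came next to the highest, so each group spanned a wide range and the groups overlapped. The group means were 425 ± 184 FPKM in melatonin animals and 432 ± 117 FPKM in vehicle animals (SD, n = 3 each). The log2 difference was -0.07 ± 0.29, with a 95% interval of -0.75 to 0.60 (limma adjusted p = 0.985). Nearly all of it came from NM_133517, and the second transcript, NM_001301664, held at most 0.31% in any animal.

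The spread of Atp12a stood out from its level. The highest animal was 2.17 times the lowest, and the coefficient of variation over the 6 animals was 32.1%, where counting an estimated 5974 reads gives 1.29%. Of the 198 features within 1.5 times of its level, 6.57% varied more, and their median was 7.93%. For Kcnq1, Kcne3 and Kcnk5 the observed 12.7%, 15.2% and 11.5% lay near the 11% that was the median of features at their levels. Kcnma1 varied by 21.9%, with a median of 29.3% for its level, and Kcnip2 by 71.9%, with a median of 43.5%.

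**Figure D3:**
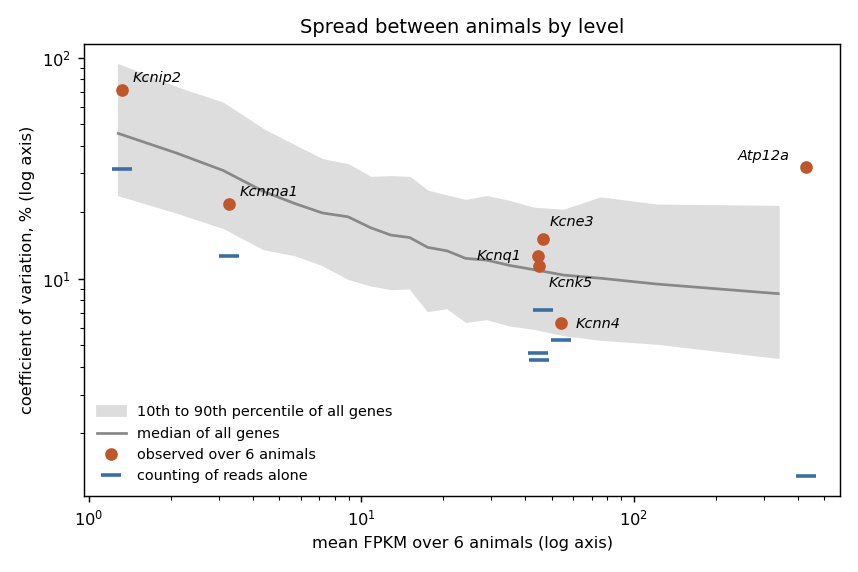
Coefficient of variation over the 6 animals against mean FPKM, both on log axes; the grey band and line give the 10th to 90th percentile and the median of all tested features, orange points the 7 genes, and blue dashes the variation that counting reads alone would give. Atp12a at 32.1% lies beyond the right end of the band and higher than its top there, and Kcnn4 at 6.35% lies close to its counting value.

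Atp1b1, a beta subunit of the sodium pump and also a candidate partner of Atp12a, stood at 1516.24, 1366.01 and 1325.22 FPKM after melatonin, against 1571.58, 1661.89 and 1608.13 FPKM after vehicle, so no melatonin value reached a vehicle value (log2 difference -0.20 ± 0.09, limma adjusted p = 0.972). Of the 15 genes listed as partners of the 2 pumps, 10 were in the table and 5 passed the filter, with 0 called. Fxyd3, a modulator of the sodium pump, averaged 148 ± 9.47 FPKM after melatonin and 143 ± 11.9 FPKM after vehicle (SD, n = 3 each), and Fxyd5, a relative of it, averaged 5.42 ± 2.12 FPKM after melatonin and 3.36 ± 1.74 FPKM after vehicle.

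Of the mineralocorticoid pathway, through which aldosterone acts on the colon, 8 of 9 genes were in the table and tested, with 0 called, 7 of 8 below 0 and a median log2 difference of -0.23, against -0.02 over all features. Hsd11b2, the enzyme that shields the receptor from corticosterone, averaged 491 ± 67.6 FPKM after melatonin and 487 ± 78.8 FPKM after vehicle (SD, n = 3 each). The kinase gene Sgk1 stood at 588.40, 454.69 and 208.26 FPKM after melatonin, against 471.27, 510.17 and 586.84 FPKM after vehicle, with melatonin animal 6 the lowest. The receptor gene Nr3c2 averaged 71.3 ± 6.31 FPKM after melatonin and 76.3 ± 3.85 FPKM after vehicle. Scnn1a, the alpha subunit of the sodium channel ENaC, did not overlap between groups, at 265.38, 245.47 and 244.03 FPKM after melatonin, against 276.19, 279.20 and 309.72 FPKM after vehicle (log2 difference -0.20 ± 0.09, limma adjusted p = 0.972).

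Calmodulin is the calcium sensor bound to KCa3.1. Of its genes, Calm3 averaged 205 ± 12.6 FPKM after melatonin and 197 ± 17.9 FPKM after vehicle (SD, n = 3 each). Calm2 stood at 159.40, 143.70 and 125.52 FPKM after melatonin, against 206.65, 167.11 and 168.51 FPKM after vehicle, so the groups did not overlap (log2 difference -0.34 ± 0.13, limma adjusted p = 0.972). Nme2, a histidine kinase reported to activate the channel, averaged 88.8 ± 22.0 FPKM after melatonin and 67.8 ± 6.58 FPKM after vehicle (limma adjusted p = 0.972). Of the 8 genes in this list 7 were in the table, all 7 tested and 0 called, with a median log2 difference of -0.07. Wholly lower were 2 of the 7, against 4.33% of all features, namely Calm2 and Pik3c2b, a lipid kinase reported to sustain the channel, which averaged 55.2 ± 3.41 FPKM after melatonin and 60.1 ± 1.84 FPKM after vehicle (SD, n = 3 each). KCa3.1 is also a channel of T cells and red blood cells. Markers of T and NK cells, 10 of 10 in the table, summed to 14.8 to 29.2 FPKM in melatonin animals and 7.74 to 16.4 FPKM in vehicle animals. Of the 8 tested, 7 were above 0 and 1, Cd3g, below it, with a median log2 difference of 0.47 and 0 called. The groups did not overlap for 1 of the 8, against 4.04% of all features wholly higher. That was Cd3e, at 2.60, 2.81 and 5.07 FPKM after melatonin, against 1.97, 1.23 and 0.86 FPKM after vehicle, while Cd3g stood at 0.49, 0.48 and 2.88 FPKM after melatonin, against 0.96, 3.67 and 0.97 FPKM after vehicle. Red blood cell genes, 6 of 6, summed to 77.5 to 133 FPKM in melatonin animals and 128 to 171 FPKM in vehicle animals. All 4 tested were below 0, against 54.0% of all features, with a median log2 difference of -0.42 and 0 called. Wholly lower was 1 of the 4, against 4.33% of all features. That was the globin gene Hbb-b1, at 2.63, 1.34 and 1.24 FPKM after melatonin, against 3.86, 3.24 and 5.69 FPKM after vehicle (limma adjusted p = 0.972). It rested on an estimated 6, 3 and 3 reads after melatonin, against 9, 7 and 13 reads after vehicle. The groups overlapped for the more abundant Hba-a1, Hba-a2 and Hbb. Hba-a1, the highest, stood at 66.71, 44.54 and 83.43 FPKM after melatonin, against 90.68, 69.84 and 99.94 FPKM after vehicle. Alas2, the defining enzyme, was at most at 0.46 FPKM. The part of these cells in the Kcnn4 level was not tested.

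Potassium-coupled cotransporters, 5 of 6 in the table and 4 tested, had 0 called. Slc12a2, the cotransporter NKCC1 that brings potassium in with sodium and chloride, stood at 85.13, 88.83 and 56.45 FPKM after melatonin, against 82.13, 99.25 and 60.92 FPKM after vehicle. Melatonin animal 6 and vehicle animal 3 were low and the groups overlapped. Slc12a7, the potassium and chloride exit carrier KCC4, stood at 69.38, 48.74 and 37.91 FPKM after melatonin, against 54.96, 68.79 and 68.70 FPKM after vehicle (log2 difference -0.33 ± 0.21, limma adjusted p = 0.972). Slc12a4, a related exit carrier, averaged 2.47 ± 1.07 FPKM after melatonin and 2.08 ± 1.06 FPKM after vehicle (SD, n = 3 each).

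Set among the whole family, the 6 members whose symbol begins with Kcn were not the most abundant. The table held 54 such genes, of which 15 had a mean of at least 1 FPKM and 39 less. The 6 at or above 10 FPKM held 92.1% of the summed level, and Kcnn4, Kcne3, Kcnk5 and Kcnq1 were the third to sixth of them. The first was Kcnk6, a two-pore domain gene, at 138.45, 135.10 and 125.56 FPKM after melatonin, against 117.66, 167.13 and 168.55 FPKM after vehicle, with vehicle animal 1 the lowest. The second was Kcnk1, which encodes the two-pore channel TWIK-1, at 49.96, 77.88 and 70.59 FPKM after melatonin, against 89.64, 78.83 and 87.67 FPKM after vehicle. For Kcnk1 the groups did not overlap, though melatonin animal 5 lay just below vehicle animal 2. Its difference was -0.39 ± 0.16 on the log2 scale (limma unadjusted p = 0.0449, adjusted p = 0.972).

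Of the 15 Kcn genes tested, 0 were called in either direction, 11 were below 0, and their median log2 difference was -0.07, against -0.02 over all features. Wholly lower after melatonin were 2 of the 15, against 4.33% of all features, and wholly higher 1 of the 15, against 4.04%. Kcnip2 and Kcnk1 were the lower ones, of which Kcnip2 passed the filter through its vehicle animals alone. Kcnh3, a voltage-gated channel of the brain, lay wholly higher at 2.57, 2.50 and 2.20 FPKM after melatonin, against 1.14, 1.57 and 2.15 FPKM after vehicle (log2 difference 0.40 ± 0.25, limma adjusted p = 0.972). The 3 tested genes of the two-pore list, which leaves out Kcnk5, were all below 0, with a median of -0.36 and 0 called. Inward rectifiers are channels that pass potassium more easily into the cell. Of the 17 genes of their list, which includes Abcc partner genes, 13 were in the table and 2 passed the filter. Kcnj14 averaged 3.71 ± 0.861 FPKM after melatonin and 3.86 ± 0.162 FPKM after vehicle, and Kcnj9 1.84 ± 0.851 FPKM after melatonin and 2.76 ± 1.47 FPKM after vehicle (SD, n = 3 each). The small conductance genes Kcnn1 and Kcnn3, relatives of Kcnn4, were at most at 0.18 and 0.35 FPKM in any animal.

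**Figure D4:**
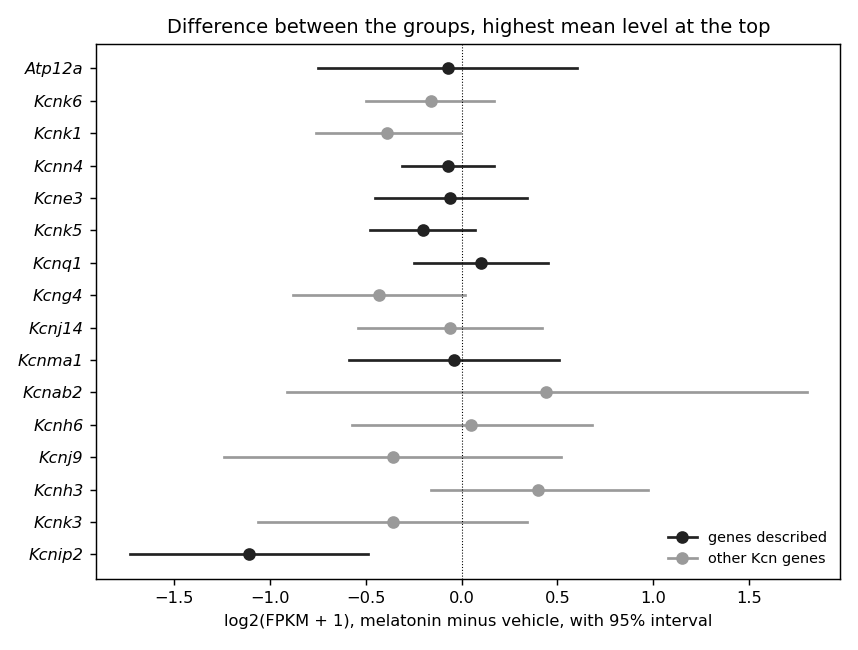
Fitted log2 difference, melatonin minus vehicle, of log2(FPKM + 1) and its 95% interval for Atp12a and the 15 tested Kcn genes, highest mean level at the top, the 7 genes described in black and the other Kcn genes in grey. The intervals of Kcnip2 (-1.73 to -0.49) and Kcnk1 (-0.76 to -0.01) lie below 0 before adjustment, and those of the other genes hold 0.

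**Figure D5:**
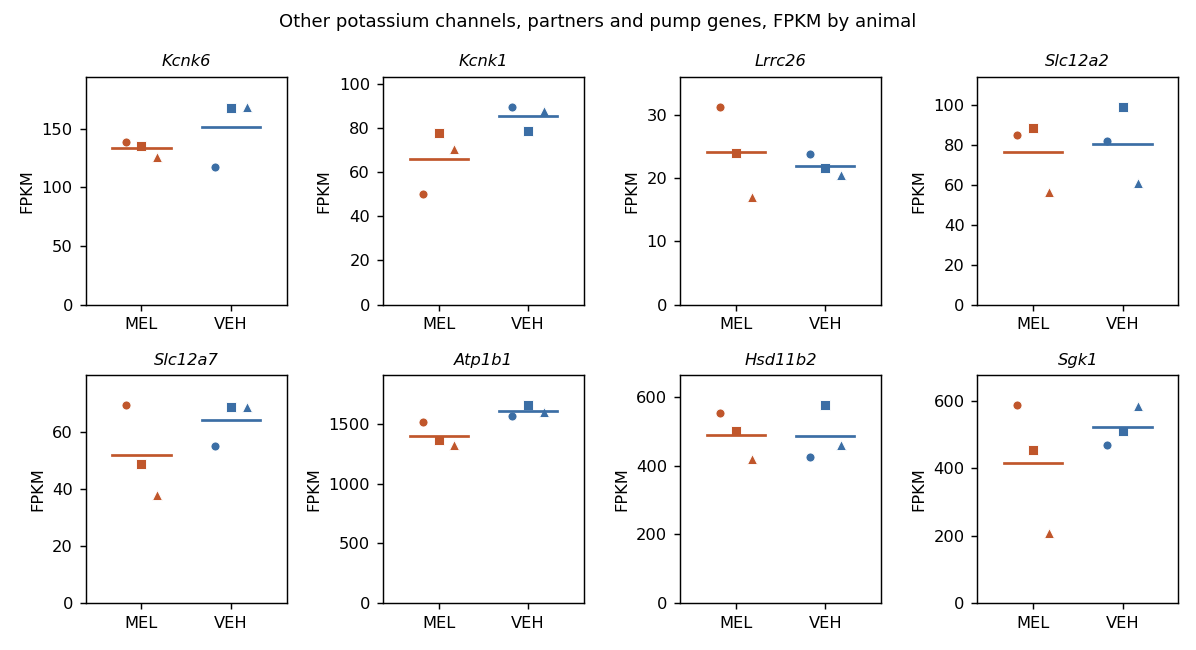
FPKM by animal of other abundant potassium channel genes, the BK gamma subunit, the potassium cotransporters, a sodium pump subunit, Hsd11b2 and Sgk1, melatonin animals left in orange and vehicle animals right in blue, with a line at the group mean and each axis starting at 0. Kcnk1 and Atp1b1 show groups that do not overlap, and the other 6 genes plotted overlap.

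RefSeq promoter windows (build GRCr8, from 250 bases before to 50 after a gene's start) were found for 5 of the 7 genes. The 3 shown belong to Kcnip2, whose groups did not overlap, and to the 2 genes in whose windows a searched motif was found, Kcnk5 and Atp12a. For Atp12a it is the window at the second of its 2 listed starts. Capitals mark the matches.
Kcnip2 (chr1:254613849-254614148, minus strand): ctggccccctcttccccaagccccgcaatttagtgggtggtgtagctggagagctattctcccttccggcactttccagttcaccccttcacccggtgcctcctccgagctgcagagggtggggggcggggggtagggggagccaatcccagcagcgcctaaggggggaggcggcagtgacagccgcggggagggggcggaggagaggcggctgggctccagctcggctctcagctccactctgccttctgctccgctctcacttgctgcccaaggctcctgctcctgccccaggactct
Kcnk5 (chr15:4171375-4171674, plus strand): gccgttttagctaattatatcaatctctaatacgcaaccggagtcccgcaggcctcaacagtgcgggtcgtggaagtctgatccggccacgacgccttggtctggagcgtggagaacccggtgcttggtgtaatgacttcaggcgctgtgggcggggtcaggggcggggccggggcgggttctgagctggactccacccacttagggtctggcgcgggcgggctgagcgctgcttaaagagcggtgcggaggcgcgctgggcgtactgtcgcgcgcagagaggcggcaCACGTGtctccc
Atp12a (chr15:34559495-34559794, plus strand): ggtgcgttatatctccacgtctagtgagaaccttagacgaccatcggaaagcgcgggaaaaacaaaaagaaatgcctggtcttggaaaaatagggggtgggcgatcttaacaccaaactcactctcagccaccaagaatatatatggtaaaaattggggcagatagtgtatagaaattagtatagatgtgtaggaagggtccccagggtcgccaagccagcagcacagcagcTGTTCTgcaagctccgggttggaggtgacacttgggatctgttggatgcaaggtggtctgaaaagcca
The motifs searched on both strands were the clock factors' E-box CACGTG, the steroid hormone half-site AGAACA, the cyclic AMP element TGACGTCA and the D-box TTATGTAA. The E-box was found in the Kcnk5 window, and 6.42% of all 33469 windows hold it. The half-site was found in the Atp12a window on the opposite strand, where it reads TGTTCT, and 20.7% of all windows hold it. The cyclic AMP element is in 1.83% and the D-box in 0.893% of all windows and in none of those of the 5 genes. These matches are letters only, and no binding was measured here.

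Genes with the pattern most like each of the 7 across the 6 animals were ranked by Pearson's r on log2(FPKM + 1) over 9492 named genes, as a description without a test, since with 6 animals between 40 and 442 genes reached r = 0.9 with 1 of them. For Kcnn4 the nearest were Ago1 (r = 0.995), Coro7 (r = 0.990) and Rab5b (r = 0.990), and for Kcnma1 they were Mtss1 (r = 0.996), Zfp592 (r = 0.992) and Pde4d (r = 0.990). For Kcnq1 they were Chtop (r = 0.995), Klhl7 (r = 0.984) and Lgals8 (r = 0.981), and for Kcne3 Ctnnal1 (r = 0.990), Rcan3 (r = 0.988) and Rad51c (r = 0.988). For Kcnk5 they were Lrwd1 (r = 0.998), Rnf25 (r = 0.993) and Got1 (r = 0.989). Kcnip2 was nearest to Pcm1 (r = 0.995), Klhl20 (r = 0.982) and Ogfod1 (r = 0.977), all 3 of them also wholly lower after melatonin, which likeness to Kcnip2 brings with it. Atp12a was nearest to Pdk3 (r = 0.995), Cdk2ap2 (r = 0.978) and Cstf1 (r = 0.966). Pdk3, a kinase that switches off pyruvate dehydrogenase, stood at 5.27, 11.40 and 6.42 FPKM after melatonin, against 6.43, 10.38 and 7.93 FPKM after vehicle, the same 2 animals high. The points share 6 libraries and were picked as the highest of many, so the values describe these animals only.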

How the data were processed

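RNA of the colonic inner epithelial layer was sequenced after poly(A) capture and random priming, per the labels' protocols, which describe no strand marking. The authors deposited FPKM per RefSeq transcript and library, per the file headers, with their own group means and the log2 ratio of those means. Named without roles in the submitters' processing notes are the build rn6, RSEM, Bowtie2 and BWA 0.7.10-r789. How reads shared by transcripts were divided is not given in the sources used here.

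Accessions were matched to RefSeq symbols (GRCr8, names only) for 12883 of 13647 transcripts, and FPKM was summed per gene. The two-sided moderated test of limma 3.58.1 (R 4.3.3), with its variance trend, was run on log2(FPKM + 1) over 10137 features with a mean of at least 1 FPKM, with Benjamini-Hochberg adjustment, and was tested on simulated data. These log2 changes understate those of low genes. Reads were estimated from steps in low FPKM values, taking 35 bases off each length, with 83.9% to 89.6% of the values used within 0.1 of a whole number. Replicates are separate animals. Without strand, Kcnma1, Kcnq1, Kcne3 and Kcnk5 each overlap 1 other annotated gene, of which the one at Kcne3 was in the table at 0.33 to 0.95 FPKM.

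The genes and lists were chosen with earlier results of these data known. The text names the 7 genes, the 3 genes most like each, and from each list up to 4 genes by mean and 2 by p where they bear on the 7. Kcnh3, Pik3c2b, Cd3g, Acta2, Actg2, Synpo2, Sox10 and Alas2 fall outside that rule and were named after their values were seen. A few list genes within the rule are left out of the text. Alternatives were another pseudocount, 2 filters, 2 scalings (trimmed mean of M values, and median of ratios), array weights, unsummed transcripts and leaving out each animal.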

Additional observations from a re-analysis of the deposited data

How the results depend on the processing

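No alternative called any of the 7 genes or any of the Kcn genes, and Kcnip2 and Kcnk5 stayed below 0 in all 13 alternatives each. Leaving out each animal in turn moved the log2 difference (melatonin minus vehicle) between -1.26 and -1.0 for Kcnip2, -0.28 and -0.12 for Kcnk5, -0.14 and -0.02 for Kcnn4, -0.23 and 0.11 for Kcnma1, -0.07 and 0.19 for Kcnq1, -0.19 and 0.14 for Kcne3, and -0.41 and 0.15 for Atp12a. The direction turned without melatonin animal 6 for Kcnma1 (0.11), Kcne3 (0.14) and Atp12a (0.03), without melatonin animal 4 for Atp12a (0.15), without vehicle animal 2 for Kcnma1 (0.04) and Atp12a (0.13), and without vehicle animal 1 for Kcnq1 (-0.07). Array weights, which gave melatonin animal 5 a weight of 2.56, turned Kcne3 (0.07) and Atp12a (0.30). On the most abundant transcript alone, Kcnn4 stood at 0.33, since that row leaves out the other 2 transcripts. With a pseudocount of 0.1 the value for Kcnip2 was -2.07 (limma adjusted p = 0.969). Over its alternatives the adjusted p of Kcnip2 ran from 0.266 to 1. Over all features, leaving out an animal gave between 0 and 4 genes called higher and 0 lower, with 4 without melatonin animal 4 and 3 without vehicle animal 1, and dropping the filter on low values gave 1 called lower. The share of NM_001270701 differed by 13.3 to 29.9 points with 1 animal left out. That of NM_001270702 ranged from -13.3 to 10.4 points, and turned to 1.87 without melatonin animal 4 and 10.4 without vehicle animal 1. That of NM_023021 ranged from -24.1 to 0. Scaling moved no direction of the 7 genes. No paired analysis was run, because the labels describe no pairing of animals between the groups. Depth limits Kcnip2 most, at an estimated 2 to 19 reads per library.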
